A study of Mus musculus and Homo sapiens with 17 samples.

Results

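Glycolysis and the response to low oxygen were read through 38 genes: 3 for glucose uptake and hexose phosphorylation, 7 for the upper and 6 for the lower steps of glycolysis, 4 for the fate of pyruvate and lactate, 2 PFK-2 enzymes, 2 carbonic anhydrases, 4 oxygen sensors and HIF subunits, and 10 further genes known to be induced by hypoxia. Members are defined by gene symbol and grouped by known function, with no threshold on a measured value, though earlier results of these data were known when they were listed. All 38 were found among the 54532 named features of the mouse count table and, under their human symbols, among the 58735 named features of the A431 table. All 38 also passed the filter on low counts in both, so no member is left out of the counts given below. The study concerns the loss of DUSP1, a phosphatase that switches off MAP kinases, in skin squamous cell carcinoma (SCC). All 11 mouse libraries came from C57BL/6-129 animals treated with DMBA, a carcinogen, and TPA, a tumour promoter: 3 from skin and 3 from SCC of wild-type (WT) mice, and, labelled DUSP1 KO, 3 from papilloma and 2 from SCC. Whole frozen sections gave the RNA, which thus came from all their cells and not from keratinocytes alone, the cell type the labels name, and a fall in a gene may mean fewer cells that express it or less RNA per cell, which bulk RNA cannot tell apart. Skin labelled KO and WT papilloma are not among the samples analysed here, so the papillomas differ from WT SCC in both lesion and genotype. A431, an established human line of epidermoid carcinoma cells, carried a guide against Tomato, a gene foreign to it (3 control libraries), or against DUSP1 (3 KO libraries). Tumours grew for 3 weeks from 100000 cells placed in the dermis, mouse cells were then depleted, and the descriptions of KO libraries 2 and 3 carry the same code.

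Glycolysis splits glucose into pyruvate, and lactate dehydrogenase turns pyruvate to lactate, which leaves the cell together with protons through monocarboxylate transporters. When oxygen is scarce the prolyl hydroxylases encoded by Egln1 and Egln3 no longer mark the HIF alpha subunits for destruction, and HIF then activates genes for glucose uptake, glycolysis, angiogenesis, pH control and survival by binding a short core sequence, ACGTG or GCGTG. Squamous tumours of the skin are known for keratinocytes that depend on GLUT1, the product of Slc2a1, and for poorly perfused regions that express carbonic anhydrase 9.

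That core is shown here in 4 members, to show that it occurs in genes with different results below: Adm and P4ha1 were lower in both lesions labelled KO than in WT SCC, while Pgk1 and Pgam1, enzymes of lower glycolysis, were not called in either. Each line gives the 250 bases before the RefSeq start of the gene (GRCm38.p6), 5′ to 3′ on the strand of the gene, with the core ACGTG and the core GCGTG in capitals, read on either strand (so that CACGT stands for the first and, likewise, CACGC for the second). The windows are chr7:110627407-110627656 (plus strand) for Adm, chr10:59323046-59323295 (plus strand) for P4ha1, chrX:106186850-106187099 (plus strand) for Pgk1 and chr19:41911621-41911870 (plus strand) for Pgam1, each outside the GENCODE M21 body of its own gene. Overlap with other genes was not checked.
Adm: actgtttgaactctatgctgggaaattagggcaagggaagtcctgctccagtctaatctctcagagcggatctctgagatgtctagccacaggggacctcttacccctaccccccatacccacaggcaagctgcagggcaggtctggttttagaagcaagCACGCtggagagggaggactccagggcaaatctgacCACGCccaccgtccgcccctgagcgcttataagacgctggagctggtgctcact
P4ha1: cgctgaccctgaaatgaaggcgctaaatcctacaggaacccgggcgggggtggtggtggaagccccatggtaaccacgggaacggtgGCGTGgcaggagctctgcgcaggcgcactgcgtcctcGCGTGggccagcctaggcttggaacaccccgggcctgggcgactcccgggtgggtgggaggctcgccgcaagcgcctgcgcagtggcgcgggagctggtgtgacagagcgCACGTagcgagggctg
Pgk1: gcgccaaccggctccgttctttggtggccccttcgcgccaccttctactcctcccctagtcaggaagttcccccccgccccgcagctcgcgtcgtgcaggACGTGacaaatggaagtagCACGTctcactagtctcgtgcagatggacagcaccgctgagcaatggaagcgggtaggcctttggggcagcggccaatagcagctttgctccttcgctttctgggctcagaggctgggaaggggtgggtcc
Pgam1: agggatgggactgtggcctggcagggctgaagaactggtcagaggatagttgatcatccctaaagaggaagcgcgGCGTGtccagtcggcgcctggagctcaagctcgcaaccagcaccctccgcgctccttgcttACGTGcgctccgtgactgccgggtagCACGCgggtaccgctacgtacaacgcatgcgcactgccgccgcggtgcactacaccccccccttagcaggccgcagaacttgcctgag
Adm holds 2 cores, 54 and 90 bases before the start, both GCGTG on the other strand. P4ha1 holds 3, at 16, 126 and 163 bases. Pgk1 holds 2, at 131 and 150 bases, and Pgam1 holds 3, at 88, 114 and 175 bases. So the letters occur both in members called lower and in members not called, though Pgk1 in papilloma lay below WT SCC without overlap. Of the 38 members 35 had an entry in the RefSeq table, with 51 starts, of which 76.5% held either core against 38.6% of all 32851 starts. For ACGTG alone the shares were 47.1 and 16.6%, and for GCGTG 52.9 and 28.2%, counting both strands, so that CACGTG counts on each. The windows of members were also richer in G and C, with a median of 60.4% against 52.4% and a median of 14 CpG against 6, and a match describes letters only.

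Totals lay between 34.4 M and 47.9 M counts (M, mega) per mouse library and between 41.2 M and 53.5 M per A431 library. Levels are given as CPM, the counts per mega of TMM-scaled library size, in the order of the replicate numbers, and changes are fitted log2 fold changes with their SE and adjusted p from edgeR's quasi-likelihood test with Benjamini-Hochberg adjustment over all genes tested, called at 0.05. The Dusp1 transcript went against its label in mouse: it lay at 73.3, 83.7 and 66.6 CPM in WT SCC, 129, 109 and 109.6 in the papillomas and 139 and 174 in the SCC labelled KO, higher in the last by 1.07 ± 0.25 (SE) on the log2 scale (adjusted p = 0.0284), a call that every omission of 1 library ended (adjusted p 0.0718 to 0.144). These mouse lesions are therefore called by their label throughout, and each direction drawn from them rests on it. In A431 DUSP1 fell from 471, 467 and 485 CPM to 73.6, 71 and 77.1 (6.42-fold lower, adjusted p = 4.89e-17). Counts of 4 Y-linked genes showed male tissue in WT skin 1 and 2 and in SCC 2 labelled KO and next to none in the other 8 mouse libraries. Summed keratinocyte markers were above those of WT skin (10712 to 22081 CPM) in all lesions (56594 to 58830.2 in WT SCC), and 16 skeletal muscle markers summed to 8434 to 11136 CPM in WT skin against 16.5 to 196 in WT SCC.

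Most genes of glycolysis were higher in WT SCC than in WT skin. Of the 38 members 29 rose and 3 fell, which is 84.2% called against 40.5% of all 22371 genes tested. Members that rose made up 29 of 38 where 16.9% of all genes rose, and the median log2 fold change was 1.26 against -0.16. Groups did not overlap for 29 higher and 3 lower members of the 38, the same ones that were called, against 54.7% of all genes. All 3 genes of uptake and phosphorylation, all 4 of pyruvate and lactate, both carbonic anhydrases, 5 of 6 of lower glycolysis and 8 of 10 further hypoxia genes rose. The plot of all members by library shows this block of higher values.

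The make-up of the tissue moved with this rise, and its part in the result was not tested. In WT SCC against skin 8 of 11 keratinocyte markers were higher and 2 lower. Lower were also 7 of 8 adipocyte markers (median log2 fold change -6.99), 9 of 13 fibroblast and matrix markers (-1.49), 9 of 11 macrophage markers (-1.49), 6 of 10 lymphocyte markers (-1.51) and 7 of 12 endothelial markers (-0.70), with 1 adipocyte, 1 macrophage and 1 endothelial marker higher, as were 2 of 9 neutrophil markers. Summed fibroblast and matrix markers gave 6139 to 37790.4 CPM in skin and 3509 to 5471 in WT SCC, and none of the markers of these types was at 0 throughout a mouse group.

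**Figure D1:**
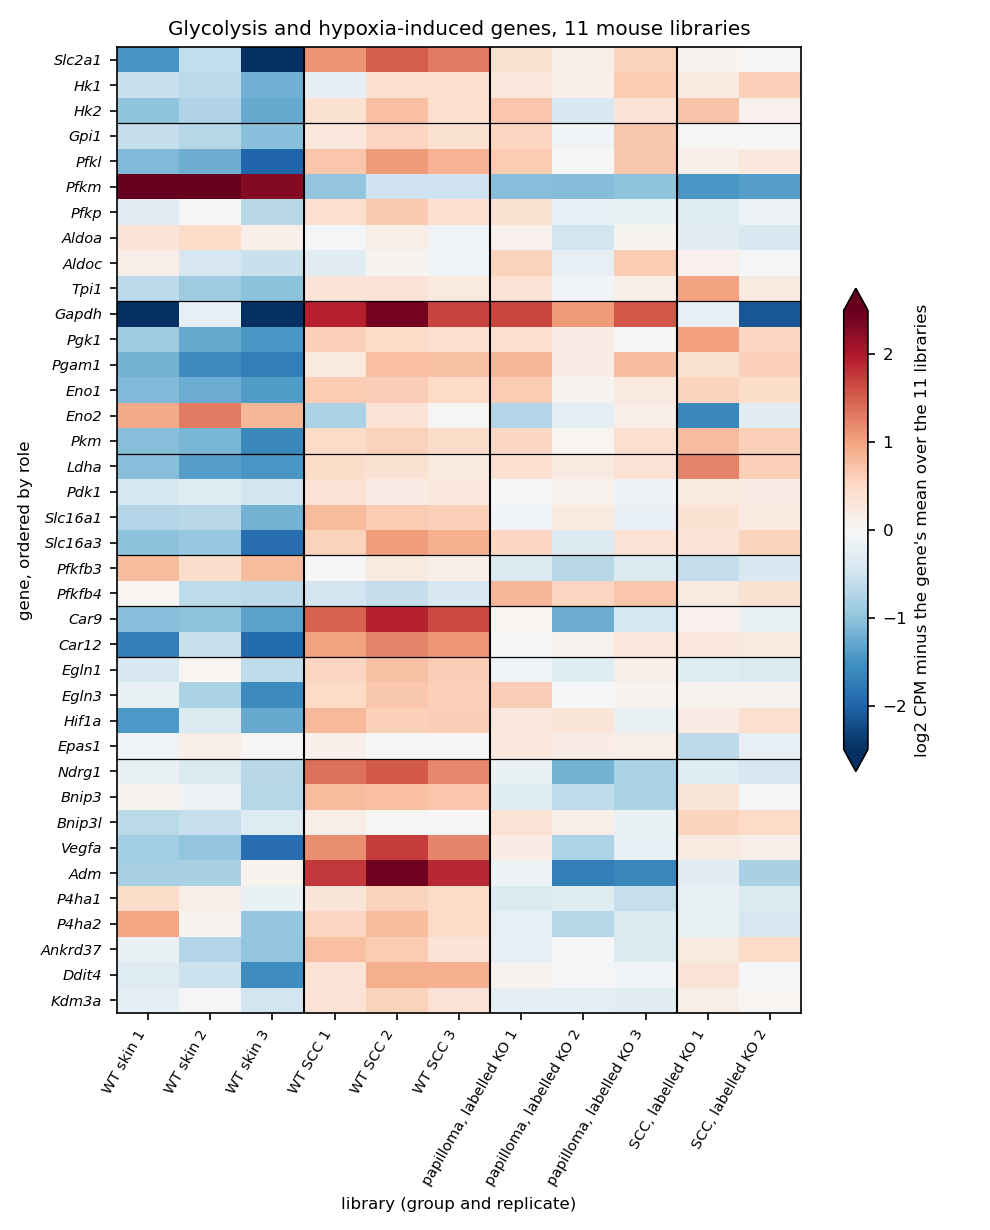
Level of each of the 38 members (rows, ordered by role, lines between roles) in the 11 mouse libraries (columns, by group), as log2 CPM minus the mean of the gene over the libraries; colours end at 2.5 in either direction. Most rows turn from below to above their mean between WT skin and WT SCC, Pfkm turns the other way, and Car9, Ndrg1, Vegfa and Adm are higher in WT SCC than in any other group.

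Among the enzymes, enolase 1 (Eno1), which makes phosphoenolpyruvate, lay at 510.5, 466 and 416 CPM in WT skin and at 1717, 1693 and 1557 in WT SCC, a rise of 1.84 ± 0.17 (SE) (adjusted p = 2.77e-05). Pyruvate kinase (Pkm), which makes ATP and pyruvate, rose from 886, 841 and 612 to 2605, 2769 and 2541 CPM (3.38-fold, adjusted p = 5.11e-05). For both genes every SCC library was far above every skin library. Phosphoglycerate mutase (Pgam1), which shifts the phosphate ahead of enolase, rose from 96.4, 72.8 and 65.9 to 258, 368 and 361 CPM (4.2-fold, adjusted p = 6.29e-05). The lactate exporter MCT1 (Slc16a1) rose from 79.5, 80.8 and 58.1 to 227, 205 and 198 CPM (2.89-fold, adjusted p = 6.43e-05). In both of these genes the lowest SCC library was over 2 times the highest skin library. Carbonic anhydrase 9 (Car9), which faces outward and handles the acid that such cells release, rose from 3.43, 3.52 and 2.8 to 19.6, 26.7 and 22.1 CPM (7.02-fold, adjusted p = 5.24e-05), and its relative Car12 rose 5.2-fold. The glucose transporter Slc2a1 rose 6.61-fold from uneven skin values of 117, 211 and 40 CPM to 704, 932 and 796 (adjusted p = 0.000818).

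The genes that respond to oxygen followed the same direction at different sizes. Vegfa, the main angiogenic factor, rose 5.96-fold and Adm, which encodes the vasodilator adrenomedullin, 5.7-fold. Ndrg1, a widely used marker of hypoxia, rose 3.42-fold and the HIF subunit gene Hif1a 3.06-fold. Smaller rises were those of Kdm3a, a histone demethylase (1.6-fold), Bnip3l, a mitophagy receptor (1.49-fold), and Pdk1, the kinase that shuts pyruvate dehydrogenase (1.6-fold). Epas1, which encodes HIF-2 alpha, was at 69.9, 83.8 and 76.6 CPM in skin and 81.9, 75.3 and 75.7 in WT SCC, with overlapping groups and a log2 difference of 0.02 ± 0.13 (SE) (adjusted p = 0.931). The collagen prolyl hydroxylases P4ha1 (0.28) and P4ha2 (0.37), the aldolases Aldoa (-0.32) and Aldoc (0.16) and Pfkfb4 (-0.11) were the other members not called.

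The 3 members that fell are isoforms with a relative in the set that did not. Pfkm, the muscle phosphofructokinase, lay at 154, 225 and 128 CPM in skin and at 13.2, 18.1 and 18.3 in WT SCC, lower by 10.2-fold (adjusted p = 4.81e-06), while the liver form Pfkl rose from 71.7, 66.1 and 38.2 to 249, 323 and 283 CPM (4.86-fold, adjusted p = 7.37e-05) and the platelet form Pfkp rose 1.76-fold. Per kilobase of exon, Pfkm held 74.2% ± 3.59 (SD, n = 3) of the phosphofructokinase RNA of skin and 7.86% ± 0.877 (SD, n = 3) of that of WT SCC, and Pfkl 13% ± 2.92 and 68% ± 0.718. In papillomas and SCC labelled KO Pfkl held 67.9% ± 4.75 (SD, n = 3) and 68.8% ± 0.194 (SD, n = 2), so this exchange was shared by all lesions. Skeletal muscle markers moved with it: all 15 that could be tested fell in WT SCC against skin, and their part in the result was not tested. Pfkfb3, a PFK-2 enzyme that makes the activator of phosphofructokinase, went from 66.2, 51.6 and 66 to 37.7, 44.6 and 42 CPM (1.48-fold lower, adjusted p = 0.0106). Eno2, the neuronal enolase, was sparse, at 4.27, 5.42 and 3.9 against 1.28, 2.78 and 2.26 CPM, and its call (-1.10, adjusted p = 0.0479) did not survive the omission of any of the 6 libraries (adjusted p up to 0.154). Eno2 was also lost with no filter on low counts, and the other 31 calls in WT SCC against skin held under all the alternatives run.

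**Figure D2:**
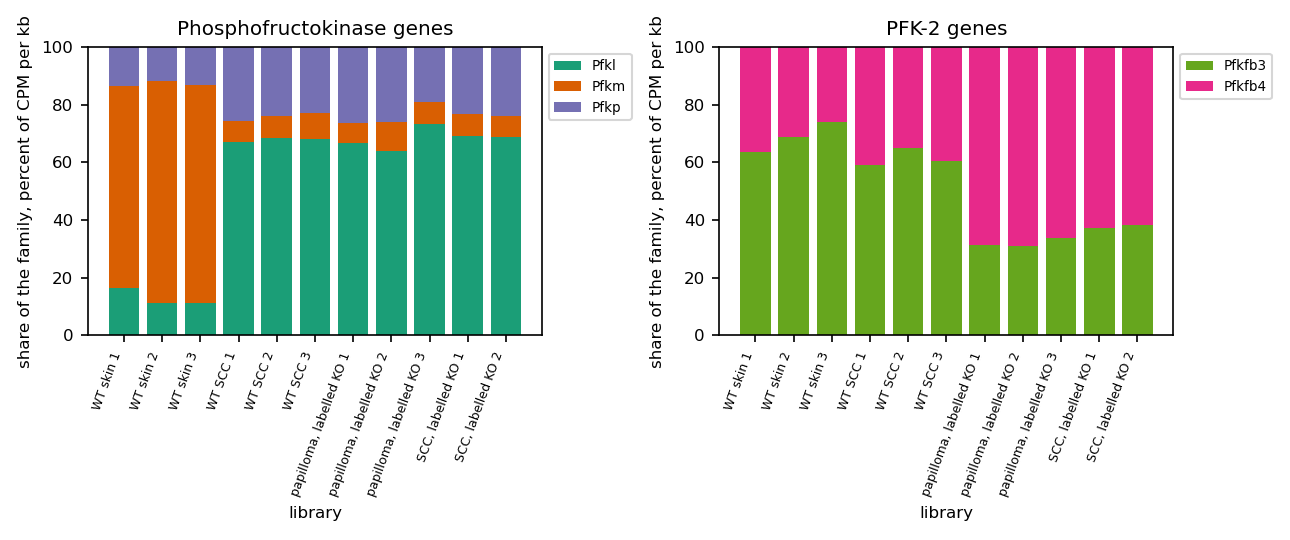
Share of each isoenzyme gene in the summed CPM per kilobase of exon of its family (y axis, percent, stacked bars) in each mouse library (x axis), for 3 phosphofructokinase genes (left) and 2 PFK-2 genes (right). Pfkm fills 70.2 to 77.0% of the left bars in WT skin and at most 10.3% in any lesion, and Pfkfb4 fills most of the right bars only in lesions labelled KO (61.7 to 69.0%).

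Compared per kilobase of exon, which allows genes to be set side by side, Ldha, the lactate dehydrogenase subunit, had the highest level in every group among the 37 members with 1 gene ID, at 253 ± 37.2 CPM per kb in skin, 794 ± 66.3 in WT SCC, 777 ± 52.9 in the papillomas (SD, n = 3 each) and 1201 ± 375 in the SCC labelled KO (SD, n = 2). Aldoa is not among those 37, because its abundant row cannot be tied to 1 of 2 gene IDs, with 2911 and 799 bases of exon. By the longer it lay at 753 ± 96.6 CPM per kb in skin, above Ldha, and at 604 ± 52.8 in WT SCC (SD, n = 3 each), below Ldha, and by the shorter it would be above Ldha in every group. In CPM Ldha lay at 976, 792 and 742 in skin, 2821, 2676 and 2389 in WT SCC, 2707, 2375 and 2638 in papillomas and 4852 and 3096 in the SCC labelled KO. SCC 1 labelled KO stood above all other libraries for it, and its group did not overlap WT SCC, but the difference of 0.60 ± 0.21 (SE) was not called (adjusted p = 0.101).

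Carbonic anhydrase 9, Ndrg1, Adm, Egln1 and P4ha1 were lower, and Pfkfb4 higher, in both lesions labelled KO than in WT SCC. In SCC labelled KO 5 members were lower and 1 higher than in WT SCC, 15.8% of the 38 against 7.87% of all genes, of which 3.38% were lower and 4.48% higher. In papilloma labelled KO 10 were lower and 1 higher, 28.9% against 5.25%, with 1.77% of all genes lower and 3.49% higher. The medians of the members were -0.43 and -0.45 against -0.01 and 0.02 over all genes, and 30 and 31 members had a negative value. Groups did not overlap for 23 lower and 4 higher members in SCC, where 46.6% of all genes did not, and for 23 lower and 2 higher in papilloma, where 26.6% did not. The 2 comparisons use the same 3 WT SCC libraries and are not independent of each other. Of 10 further hypoxia genes 3 were lower in SCC (median -0.66) and 6 in papilloma (median -0.94).

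None of the 16 genes from glucose uptake to pyruvate kinase passed the threshold in either comparison, at medians from -0.38 to -0.08 per role in SCC, and the difference between roles was not tested. In SCC labelled KO 7 of the 16 lay below WT SCC without overlap (Slc2a1, Gpi1, Pfkl, Pfkm, Pfkp, Aldoa and Gapdh) and 1 above (Pkm), and in papilloma 6 lay below. Over all genes 46.6% did not overlap in SCC and 26.6% in papilloma. Pfkm and Pfkp came nearest in SCC (-0.76 and -0.74, adjusted p = 0.0679 and 0.0684). The absence of calls there depended on the fit: DESeq2 called 4 of the 16 lower (Slc2a1, Pfkm, Pfkp and Gapdh), the fit with only the groups compared 5 (these and Pfkl) and that with no filter on low counts 3 (Slc2a1, Pfkm and Gapdh). In papilloma the last 2 fits called 1, Slc2a1, and DESeq2 0. Over all genes SCC labelled KO had 3328 calls with DESeq2, 4160 with only the groups compared and 2365 with no filter. In papilloma these were 2160, 1797 and 1854. The fit used for the calls above had 1760 in SCC and 1175 in papilloma. Slc2a1 lay at 704, 932 and 796 CPM in WT SCC, 426, 365 and 476 in papilloma and 339 and 332 in SCC labelled KO. Its groups did not overlap, but the differences of -0.94 ± 0.43 (SE) and -1.27 ± 0.49 (SE) did not pass in the fit of all groups (adjusted p = 0.256 and 0.137).

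**Figure D3:**
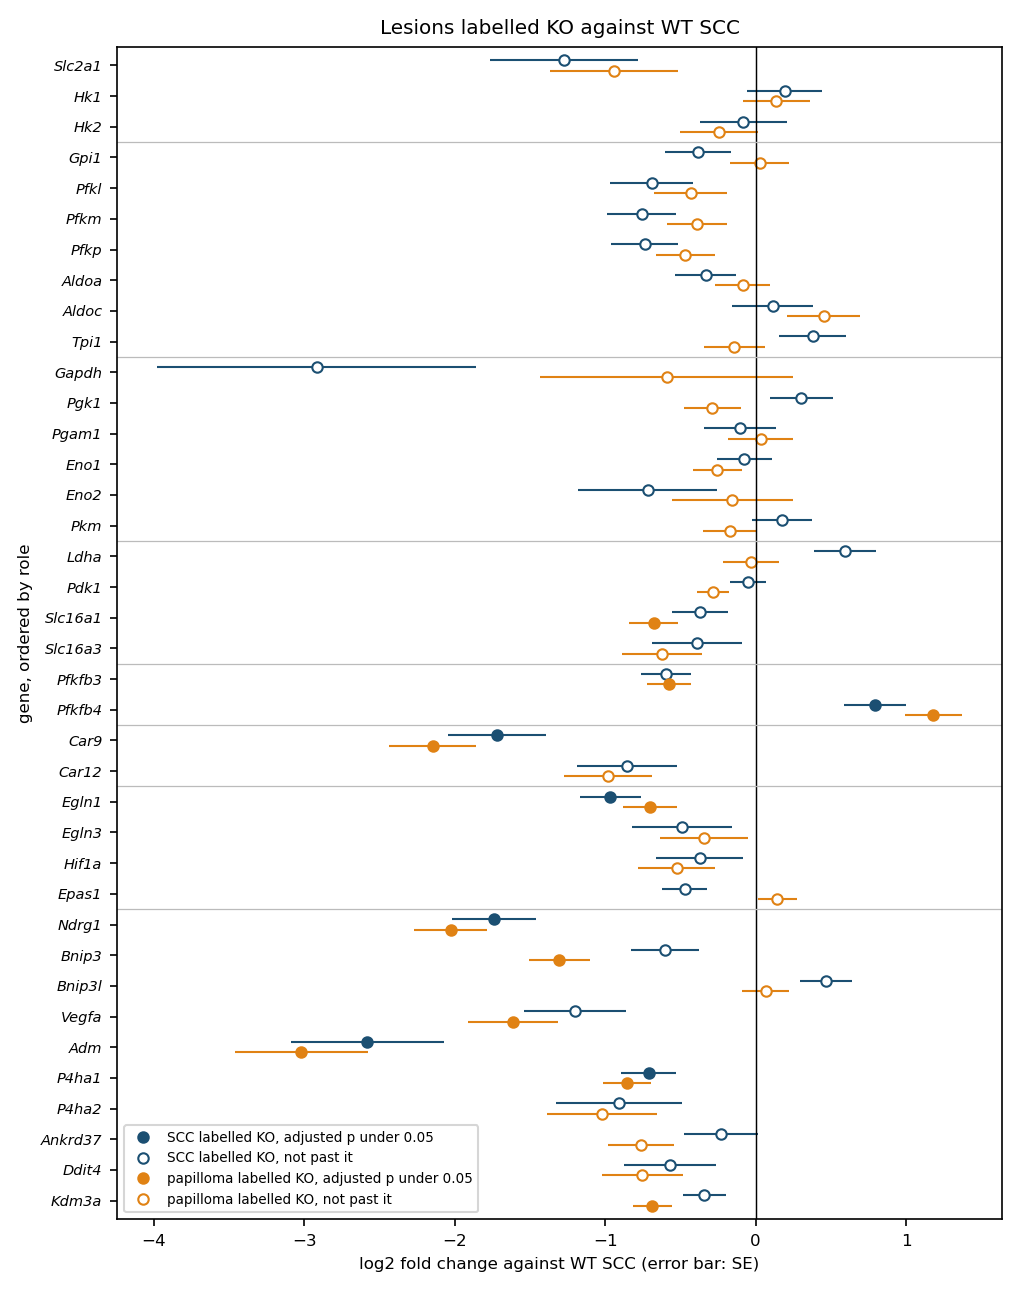
Fitted log2 fold change of each member (y axis, by role) against WT SCC (x axis, bar: SE) in SCC labelled KO (blue) and papilloma labelled KO (orange), filled where the adjusted p was under 0.05. Filled points lie among the lower rows, with Adm farthest to the left, Pfkfb4 is the filled pair on the right, and Gapdh has a wide bar.

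Of the oxygen-regulated members, Adm lay at 38.2, 60.7 and 41.7 CPM in WT SCC, 10.3, 3.43 and 3.64 in papilloma and 9.24 and 6.43 in SCC labelled KO. Its change was -3.02 ± 0.44 (SE) in papilloma (adjusted p = 0.00283) and -2.58 ± 0.51 (SE) in SCC (adjusted p = 0.0143), the largest fall of a called member in both, and no lesion labelled KO exceeded the highest of the skin values, 6.31, 6.41 and 11.9 CPM. Ndrg1 lay at 455, 509 and 405 CPM in WT SCC, at 157, 77.4 and 102 in papilloma and at 143 and 131 in SCC labelled KO. It was 4.07-fold lower in papilloma (adjusted p = 0.000838) and 3.33-fold lower in SCC labelled KO (adjusted p = 0.0058), again without overlap with WT SCC, and the lesions labelled KO overlapped the skin values of 155, 137 and 108. Car9 lay at 19.6, 26.7 and 22.1 CPM in WT SCC, at 7.28, 2.99 and 5.19 in papilloma and at 7.56 and 6.31 in SCC labelled KO, which is 4.43-fold (adjusted p = 0.00166) and 3.29-fold lower (adjusted p = 0.012). Its lowest WT SCC library exceeded the highest library of the other lesions by more than 2 times. Car12 was not called but had the same sign in both (-0.98 and -0.86, adjusted p 0.0844 and 0.138), and its groups did not overlap.

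Egln1, the main oxygen-sensing hydroxylase, lay at 153, 176 and 161 CPM in WT SCC, 99.7, 85.2 and 117 in papilloma and 85.5 and 82.1 in SCC labelled KO, with changes of -0.70 ± 0.18 (SE) (adjusted p = 0.0457) and -0.96 ± 0.20 (SE) (adjusted p = 0.0183). P4ha1, the collagen hydroxylase whose upstream sequence is printed above, lay at 51.9, 62.2 and 58.8 CPM in WT SCC, at 33.1, 34.1 and 28.5 in papilloma and at 37.2 and 33.3 in SCC labelled KO, which is 1.81-fold (adjusted p = 0.0108) and 1.64-fold lower (adjusted p = 0.0396). Both genes were below every WT SCC library in all 5 lesions labelled KO. Egln3, Hif1a and Epas1 were not called in either comparison (smallest adjusted p 0.0761, Epas1 in SCC).

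Pfkfb4 went the other way and was the one member called higher in each comparison. It lay at 16.8, 15.6 and 17.8 CPM in WT SCC, 41.9, 34.1 and 37.8 in papilloma and 27.4 and 30.6 in SCC labelled KO, without overlap, with changes of 1.18 ± 0.19 (SE) (adjusted p = 0.00455) and 0.79 ± 0.21 (SE) (adjusted p = 0.0421). Its relative Pfkfb3 lay at 37.7, 44.6 and 42 CPM in WT SCC, at 29.8, 23.7 and 29.9 in papilloma and at 25.3 and 29.5 in SCC labelled KO, lower in papilloma by 1.49-fold (adjusted p = 0.0462) and not called in SCC (-0.60, adjusted p = 0.0516). The share of Pfkfb4 in the PFK-2 RNA per kilobase was 38.5% ± 3.04 in WT SCC, 67.9% ± 1.48 in papilloma (SD, n = 3 each) and 62.2% ± 0.725 in SCC labelled KO (SD, n = 2).

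**Figure D4:**
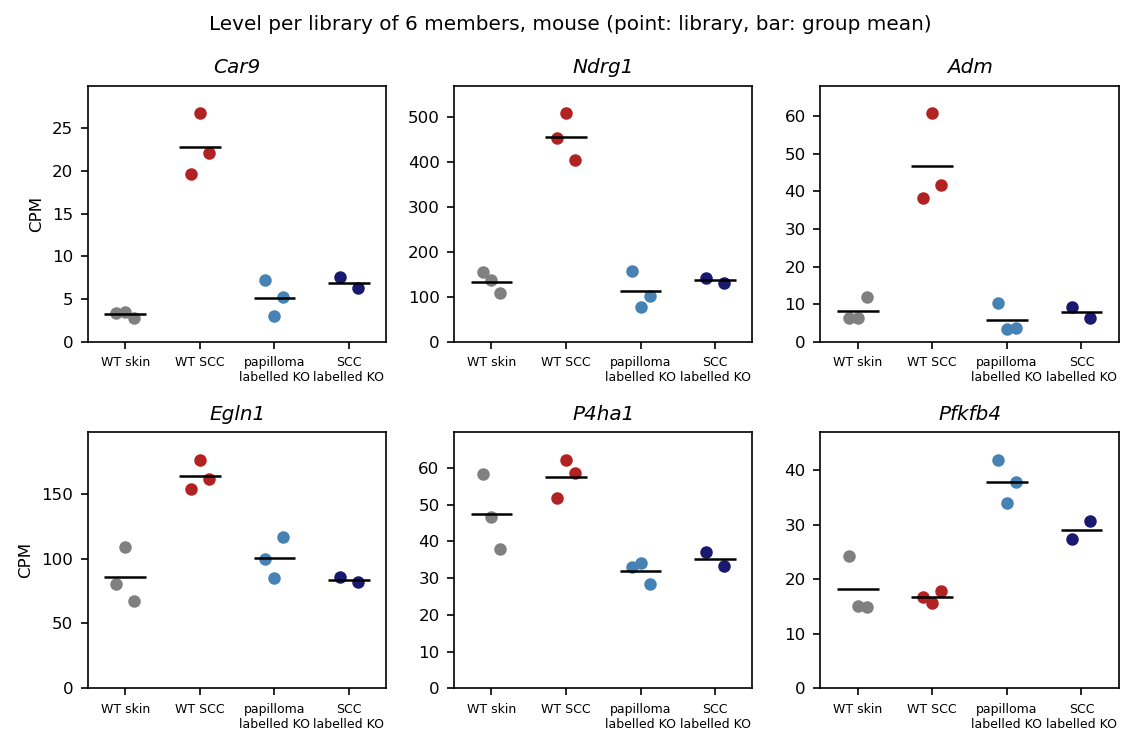
CPM (y axis, from 0) of the 6 members called in the same direction against WT SCC in both lesions labelled KO, in each mouse library (points) with the group mean (bar). Car9, Ndrg1, Adm, Egln1 and P4ha1 have their highest group mean in WT SCC, where P4ha1 overlaps skin, and Pfkfb4 has its highest in papilloma labelled KO.

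A further 5 members were called lower in papilloma and not in SCC labelled KO, while the difference between those lesions was called for none of them with the filter on low counts and, without it, for Bnip3. Vegfa lay at 262, 392 and 275 CPM in WT SCC and 133, 68.5 and 102 in papilloma (3.06-fold lower, adjusted p = 0.00988), and at 137 and 132 in SCC labelled KO (-1.20, adjusted p = 0.0543). The mitophagy receptor Bnip3 lay at 172, 168 and 159.9 CPM in WT SCC and 80.3, 64.2 and 57.6 in papilloma (2.47-fold lower, adjusted p = 0.00383), with 123 and 96.4 in SCC labelled KO. For both genes every library of papilloma and of SCC labelled KO was below every WT SCC library. Kdm3a lay at 80.5, 93.5 and 80.6 CPM in WT SCC and 53.8, 52.7 and 51.9 in papilloma (1.61-fold lower, adjusted p = 0.0105), with 69.5 and 64.5 in SCC labelled KO. Slc16a1 was 1.6-fold lower (adjusted p = 0.0363), and its 3 papilloma libraries, at 125, 155 and 114 CPM, were below all of WT SCC. P4ha2, Ankrd37 and Ddit4 had the same sign without a call (-1.02, -0.76 and -0.75, adjusted p 0.151, 0.0784 and 0.151).

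In SCC labelled KO the calls rested on few libraries. Leaving out SCC 1 labelled KO left 0 calls among members and leaving out SCC 2 left 1, and without WT SCC 1, 2 or 3 there were 4, 1 and 3. Ndrg1 was lost only without SCC 1 labelled KO (adjusted p = 0.0590), Car9 and Adm also without SCC 2 labelled KO and without WT SCC 2 (adjusted p up to 0.0889 and 0.0964). Egln1, Pfkfb4 and P4ha1 were lost in most of these fits (up to 0.141, 0.170 and 0.185). In papilloma the calls of Pfkfb4, Car9, Ndrg1, Bnip3, Vegfa and Adm held in all the alternatives run. P4ha1 and Kdm3a were lost without WT SCC 2 (adjusted p = 0.0588 and 0.0601), which left 6 calls. Slc16a1 was lost without any 1 WT SCC library or without papilloma 1 or 3 (up to 0.127), Egln1 without any 1 WT SCC library or without papilloma 1 or 2 (up to 0.160), and Pfkfb3 without any 1 of the 6 libraries (up to 0.190). With the replicate number as a block Egln1 and Pfkfb3 were also lost in papilloma, and Egln1, Pfkfb4 and P4ha1 in SCC labelled KO. RLE size factors ended Pfkfb3 in papilloma and P4ha1 in SCC, and no filter on low counts ended Pfkfb3 in papilloma.

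Some cell markers moved with these differences, and their part in the result was not tested. The 10 neutrophil markers summed to 670.2 to 875 CPM in WT SCC, 1187 to 3378 in papilloma and 1228 to 1939.8 in SCC labelled KO. Most of each sum was S100a8 and S100a9, and by edgeR 0 of 9 tested neutrophil markers were called in either comparison. Csf3r lay below WT SCC without overlap in both lesions, while Cxcr2, S100a8 and S100a9 lay above. The 11 macrophage markers gave 644 to 806, 417 to 484 and 377 to 455 CPM, the 11 lymphocyte markers 92 to 101, 28.5 to 72 and 24.7 to 37.2, and the 11 keratinocyte markers 56594 to 58830.2, 61910.3 to 104905 and 75481 to 83828. The 13 fibroblast and matrix markers gave 3509 to 5471, 2682 to 5523 and 1872 to 4777 CPM, and 2 of them were lower in SCC labelled KO and none in papilloma by edgeR. Acta2, a marker of contractile fibroblasts and smooth muscle, lay at 183, 192 and 231 CPM in WT SCC and 75.8 and 68.3 in SCC labelled KO (-1.48, adjusted p = 0.0146), and Pdgfra at 17.5, 22.5 and 30.5 and at 9.29 and 13 (-1.08, adjusted p = 0.0497). The keratinocyte sum hides the keratins of differentiating layers. Krt1 lay at 358, 382 and 458 CPM in WT SCC and 3737, 2232 and 3691 in papilloma (3.01, adjusted p = 0.000943), with 359.5 and 462 in SCC labelled KO. Krt10 lay at 911, 955 and 1059 CPM in WT SCC, was higher in papilloma at 2468, 2109.8 and 2719.7 (1.32, adjusted p = 0.0224) and lower in SCC labelled KO at 226 and 422 (-1.59, adjusted p = 0.0178). Also called lower in both lesions were Lyz2 of the macrophage list and Jchain and Mzb1 of the lymphocyte list. The sums of the 12 endothelial markers overlapped between the groups, at 296 to 342, 294 to 379 and 258 to 335 CPM. By edgeR 0 of 12 were called in either comparison. Single endothelial markers were apart without a call: in SCC labelled KO Cldn5 lay above WT SCC and Emcn below. None of these markers was at 0 throughout a group.

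Between SCC and papilloma labelled KO no member was called by edgeR, where 0.286% of all genes were (0.0492% higher, 0.237% lower). An unadjusted p under 0.05 was found for 8 of the 38 members, of which 6 were higher in SCC, and for 3493 of all 22371 genes. DESeq2 called 1 member (Epas1, lower) and the fit without a filter on low counts 2 (Bnip3 higher, Gapdh lower). The smallest adjusted p in edgeR was that of Epas1, at 89.3, 84.6 and 83.6 CPM in papilloma and 47.4 and 64.7 in SCC (-0.62 ± 0.15 (SE), adjusted p = 0.135), without overlap. Groups did not overlap for 8 members higher and 5 lower, against 31.6% of all genes. A missing call does not show that the 2 lesions were alike.

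Most glycolytic members were also higher in the lesions labelled KO than in WT skin. In SCC labelled KO 22 members were higher and 5 lower than in skin, 71.1% against 44.8% of all genes (20.5% higher, 24.3% lower), and in papilloma 21 and 4, 65.8% against 39.6% (17.1% higher, 22.4% lower). Groups did not overlap for 24 higher and 6 lower members in SCC, against 64.6% of all genes, and for 22 and 5 in papilloma, against 49.4%. The same marker lists moved as in WT SCC: 10 of 13 fibroblast and matrix, 9 of 11 macrophage, 7 of 12 endothelial and 7 of 8 adipocyte markers were lower than in skin in each lesion labelled KO, as were 9 of 10 lymphocyte markers in SCC and 8 in papilloma, and their part was not tested. Medians of the members were 0.86 and 0.78 against -0.30 and -0.22 over all genes. Of the 29 members higher in WT SCC than in skin, 21 were higher in SCC labelled KO too and 20 in papilloma, and these comparisons share the 3 skin libraries. Pfkp, Egln1, Ndrg1, Bnip3, Adm and Kdm3a were among those not called in either. Ldha was 4.75-fold higher than in skin in SCC labelled KO (adjusted p = 2.40e-05) and 3.08-fold in papilloma (adjusted p = 0.000108). Pkm was 3.82-fold (adjusted p = 3.93e-05) and 3.01-fold higher (adjusted p = 9.02e-05), at 3157 and 2794 CPM in SCC and 2652, 1931 and 2457 in papilloma. Eno1 was 3.39-fold and 2.99-fold higher, at 1625 and 1520.1 CPM in SCC and 1709, 1149.9 and 1309 in papilloma (adjusted p = 4.25e-05 and 6.34e-05). These 3 enzymes were above every skin library in all 5 lesions labelled KO. Pgk1, the first enzyme of glycolysis to make ATP, went from 359, 278 and 245 CPM in skin to 1367 and 954 in SCC (3.95-fold, adjusted p = 4.84e-05) and 878, 764 and 668 in papilloma (2.62-fold, adjusted p = 0.000281). Pgam1 reached 285 and 328 CPM in SCC (3.91-fold, adjusted p = 0.000103) and 389, 248 and 372 in papilloma (4.29-fold, adjusted p = 6.19e-05). Triose phosphate isomerase (Tpi1) went from 575, 488 and 444 CPM in skin to 1833 and 1065 in SCC labelled KO (2.89-fold, adjusted p = 0.000311), and Pfkl reached 237, 153 and 244 CPM in papilloma (3.6-fold, adjusted p = 0.000233). As with Ldha, SCC 1 labelled KO was the highest of all libraries for Pgk1, Tpi1 and Pkm.

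Lower than in skin were Pfkm at 9.52 and 10 CPM in SCC labelled KO (17.3-fold lower, adjusted p = 3.97e-06) and 12.5, 12.3 and 13 in papilloma (13.4-fold lower, adjusted p = 2.99e-06), and Pfkfb3 (2.23-fold and 2.2-fold lower, adjusted p = 0.000303 and 0.000184). Muscle markers moved here too, at 15.7 to 24.9 CPM in SCC labelled KO and 15.9 to 21 in papilloma against 8434 to 11136 in skin. Eno2 was at 0.722 and 1.84 CPM in SCC labelled KO and 1.33, 1.9 and 2.46 in papilloma, lower than in skin (-1.82 and -1.25, adjusted p = 0.00984 and 0.0296). Aldoa, at 2181, 2478 and 1915 CPM in skin and 1467 and 1331 in SCC labelled KO, and Epas1 were also lower in SCC (-0.65 and -0.45, adjusted p = 0.0245 and 0.0277), and P4ha1, at 58.3, 46.5 and 37.9 CPM in skin, was lower in papilloma (-0.58, adjusted p = 0.0151). In SCC 18 of the 27 calls held under all the alternatives run and in papilloma 21 of 25. Leaving out SCC 1 labelled KO ended Slc2a1, Gpi1, Aldoa, Eno2, Pfkfb4, Car9, Epas1 and Ddit4, and left 19 members called, with adjusted p up to 0.329 among the lost. Without SCC 2 labelled KO Slc2a1, Gpi1, Aldoa, Pfkfb4 and Ankrd37 were lost, without skin 1 Slc2a1, without skin 2 Aldoa, Pfkfb4 and Epas1, and without skin 3 Pfkfb4. In papilloma Eno2 was lost without skin 2 or papilloma 1 or 2, Egln3 without skin 2 or papilloma 1, Vegfa without papilloma 1 or 3 and P4ha1 without skin 1 or papilloma 3 (adjusted p up to 0.0991). With only the groups compared, Slc2a1, Aldoa, Epas1 and Ddit4 were also lost in SCC labelled KO, and Egln3, Vegfa and P4ha1 in papilloma. In SCC, no filter on low counts ended Aldoa and Epas1, and the replicate number as a block ended Ddit4.

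In A431 most of the set was called, by small amounts. After DUSP1 KO 23 members fell and 5 rose, 73.7% of the 38 against 47.6% of all 18090 genes tested, with 24.5% of all genes lower and 23.1% higher. The median log2 fold change was -0.18 against 0.01 over all genes. Of the 28 called members 21 changed less than 1.5-fold, and 3 reached 2-fold: HK2, EGLN3 and PFKFB4. Control and KO groups did not overlap for 24 lower and 6 higher members, against 55.0% of all genes.

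**Figure D5:**
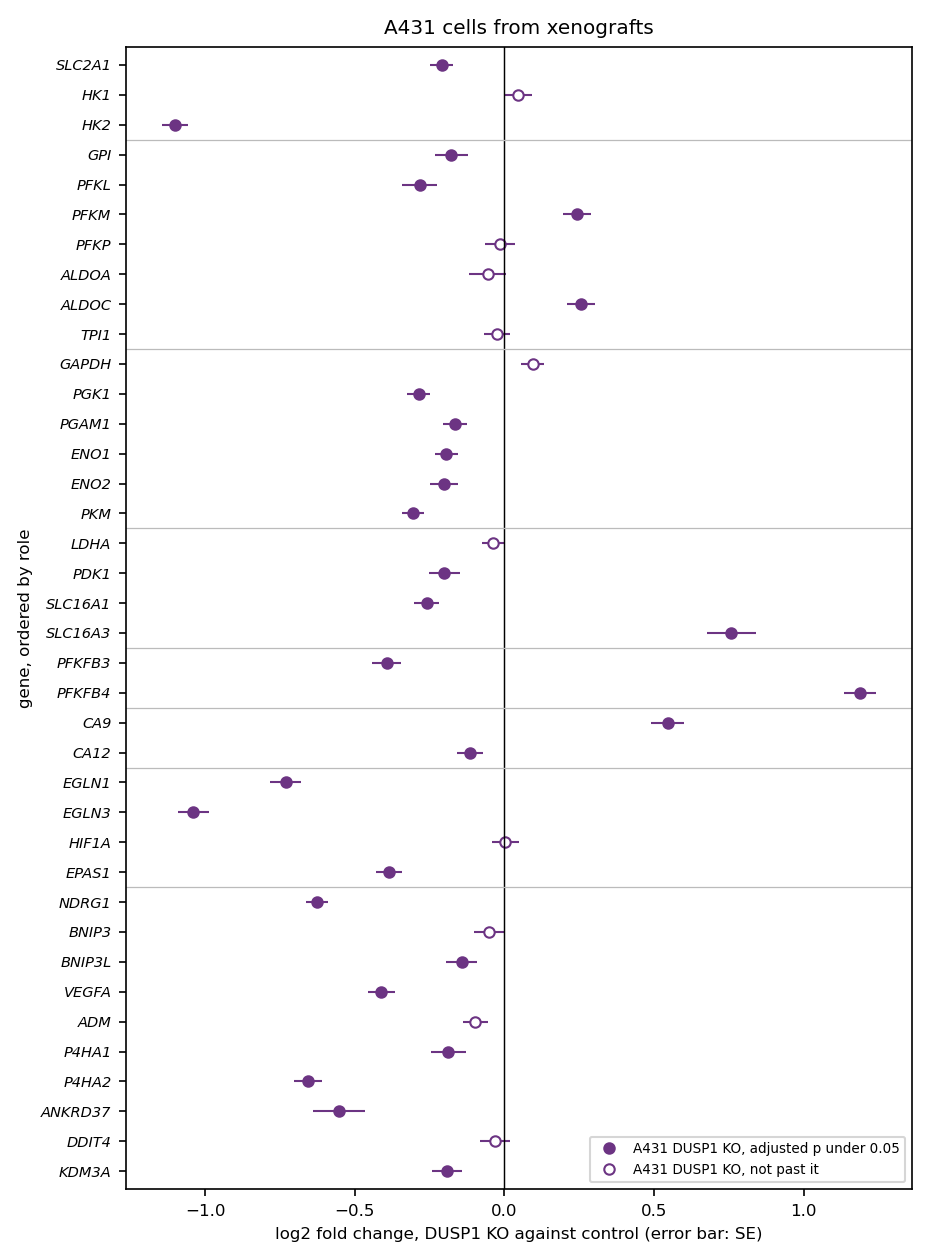
Fitted log2 fold change of each member in A431 (y axis, by role), DUSP1 KO against control (x axis, bar: SE), filled where the adjusted p was under 0.05. HK2 and EGLN3 lie farthest to the left, PFKFB4, SLC16A3 and CA9 farthest to the right, and most other points lie within 0.5 of 0.

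HK2, the hexokinase that commits glucose to the cell, lay at 311, 303 and 306 CPM in control and 145, 139.8 and 143 in KO (-1.10 ± 0.04 (SE), adjusted p = 1.67e-12), while HK1 lay at 176, 169 and 174 in control and 176, 174 and 186 in KO and was not called (0.05). EGLN3 lay at 120.5, 117 and 121 CPM in control and 56.2, 62.2 and 56.1 in KO (-1.04 ± 0.05 (SE), adjusted p = 3.66e-11). NDRG1 lay at 3219.5, 3185 and 3231 CPM in control and 2120.2, 2043 and 2074 in KO (1.54-fold lower, adjusted p = 3.14e-10). In all 3 called genes the groups were apart by many times their spread. P4HA2, a collagen hydroxylase, lay at 109, 109 and 109 CPM in control and 71.8, 67.7 and 68.3 in KO (1.58-fold lower, adjusted p = 4.81e-09). EGLN1 lay at 52.7, 53 and 53.2 CPM in control and 33.4, 31.3 and 31 in KO (1.66-fold lower, adjusted p = 5.73e-09), and VEGFA at 1471, 1454 and 1461 in control and 1173, 1064 and 1061 in KO (1.33-fold lower, adjusted p = 6.74e-07). ANKRD37, a small hypoxia-induced ankyrin protein, EPAS1 and PFKFB3 fell by 1.47, 1.31 and 1.31-fold. By role, 5 of 6 lower glycolysis genes fell, with PKM the most (1.24-fold lower, adjusted p = 3.40e-06), and 7 of 10 further hypoxia genes and 3 of 4 sensors and subunits fell.

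The 5 members that rose came from 4 roles. PFKFB4 lay at 38.4, 38.3 and 38.2 CPM in control and 81.5, 89.3 and 90.9 in KO (1.19 ± 0.05 (SE), adjusted p = 1.00e-11). SLC16A3, the lactate exporter MCT4, lay at 30.3, 29.1 and 33.4 CPM in control and 44.4, 54.2 and 58.4 in KO (1.69-fold, adjusted p = 8.03e-07), while MCT1 (SLC16A1) fell 1.2-fold from 243, 246 and 246 to 207, 208 and 198. CA9 lay at 61.8, 57.3 and 63.1 CPM in control and 85, 85.9 and 94.8 in KO (1.46-fold, adjusted p = 4.33e-07). None of these genes had overlapping groups. The aldolase ALDOC rose 1.19-fold from 102, 100.2 and 108 to 122, 126 and 123 CPM and PFKM 1.18-fold from 70.2, 73.4 and 71.7 to 85.1, 83.5 and 86.1 (adjusted p = 0.000264 and 0.000385). HK1, PFKP, ALDOA, TPI1, GAPDH, LDHA, HIF1A, BNIP3, ADM and DDIT4 were not called, all within -0.10 and 0.09. ALDOA was low, at 24, 23.1 and 23.4 CPM in control and 21.5, 22.9 and 23.4 in KO, below ALDOC. The counting rule is not stated, so the level of ALDOA is uncertain. The calls of CA12, BNIP3L and P4HA1, the largest of them 1.14-fold, were lost without KO 2, KO 3 or control 2, and the first 2 also without control 1 (adjusted p up to 0.147), and the other 25 held under all the alternatives run. Endothelial and lymphocyte markers were scarce. The 12 endothelial markers summed to 1.5 to 1.66 CPM in control and 2.58 to 3.08 in KO, and the 11 lymphocyte markers to 1.02 to 1.17 and 2.96 to 3.63. The 13 fibroblast and matrix markers summed to 239.8 to 245.5 CPM in control and 201 to 222 in KO, with 5 called lower and 3 higher. The 7 neutrophil markers gave 1244 to 1317 and 1208 to 1274 CPM, most of it S100A8 and S100A9, with 1 called lower (MMP9) and 1 higher (CXCR2). MMP9 lay at 87.1, 80.2 and 88.6 CPM in control and 14, 17.3 and 16.9 in KO, and CXCR2 was under 1 CPM in every library. The 16 skeletal muscle markers gave 74.5 to 82.5 and 92.7 to 103 CPM. The 11 macrophage markers gave 34.7 to 35.3 and 29.5 to 31.9 CPM. The 11 keratinocyte markers summed to 88004 to 94077 CPM in control and 81477 to 83453 in KO. Called lower were 5 of them (KRT1, KRT10, KRT16, DSP and EPCAM) and higher 2 (TP63 and CDH1). KRT10 lay at 9618, 9467 and 9838 CPM in control and 6055, 4965 and 4904.5 in KO. The part of these lists in the result was not tested.

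Set beside the mouse lesions, 4 of the 6 members called in SCC labelled KO were called in the same direction in A431 (Pfkfb4 higher, Egln1, Ndrg1 and P4ha1 lower), Adm was not called (-0.10, adjusted p = 0.0684) and Car9 went the opposite way. Of the 11 called in papilloma 8 were called in the same direction, 1 in the opposite and 2 not (Adm and Bnip3). These counts stand beside 24.5% of all A431 genes that fell and 23.1% that rose. Egln1 fell by 0.96 in SCC labelled KO, by 0.70 in papilloma and by 0.73 in A431 on the log2 scale, and Pfkfb4 rose by 0.79, 1.18 and 1.19. Hk2, the largest fall in A431, was at 107, 139.7 and 110.2 CPM in WT SCC and 135 and 89.6 in SCC labelled KO, with overlapping groups (-0.08 ± 0.29 (SE), adjusted p = 0.906).

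Gapdh, the glycolytic dehydrogenase often used to normalise other genes, was uneven in mouse. It lay at 9.68, 107 and 7.17 CPM in skin, 478, 653 and 401 in WT SCC, 393, 259 and 365 in papilloma and 107 and 28.3 in SCC labelled KO. Skin 2 stood far above the other skin libraries and SCC 1 labelled KO far above SCC 2. Its change was 3.63 ± 0.93 (SE) in WT SCC against skin (adjusted p = 0.00985) and -2.92 ± 1.06 (SE) in SCC labelled KO against WT SCC (adjusted p = 0.115). GENCODE M21 (chr6:125161715-125166467 for Gapdh) lists 43 genes with at least 50% of their 31-base words in Gapdh, which together held 33.0% as many counts as Gapdh. With them added, the values were 62.3, 158 and 41.9 CPM in skin, 578, 765 and 492 in WT SCC, 511, 340.4 and 464 in papilloma and 195 and 130.1 in SCC labelled KO. The rule for reads that match several of these is not known here, which makes the level of Gapdh uncertain, while GAPDH in A431 was even (1870.1, 1779 and 1851 CPM in control and 1934, 1945 and 1994 in KO). Eno1 has 2 such copies, Eno1b and Gm4735, with 32.6% as many counts. Those copies summed to 76.0 to 85.0 CPM in skin, 296 to 318 in WT SCC, 536 to 833 in papilloma and 678 to 742 in SCC labelled KO, so they were apart between WT and KO lesions where Eno1 itself overlapped (1717, 1693 and 1557 in WT SCC, 1709, 1149.9 and 1309 in papilloma and 1625 and 1520.1 in SCC labelled KO). With its copies added, Eno1 gave 2035, 2007 and 1852 CPM in WT SCC, 2541, 1685 and 1933 in papilloma and 2367 and 2198 in SCC labelled KO. That sum lay above WT SCC without overlap in SCC labelled KO, so the unknown rule makes the level of Eno1 uncertain too. Aldoa has 2 rows in the mouse table, of which the second held at most 0.881 CPM and was not called.

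The wider pathways gave a mixed picture. Of 36 tested genes of neighbouring glucose metabolism 7 were higher and 18 lower in WT SCC than in skin (median -0.72). By adjusted p the foremost were the muscle forms Pgam2 (-6.34, adjusted p = 3.91e-06) and Eno3 (-6.05), the insulin-responsive transporter Slc2a4 (-2.43) and Ldhb (-2.18). The higher ones included 4 genes of the pentose phosphate pathway, G6pdx, Pgd, Pgls and Tkt. In SCC labelled KO against WT SCC 7 were higher and 5 lower, with the glycogen genes Pygl (-1.71, adjusted p = 0.00178) and Gys1 (-1.67) lower and Gbe1 (0.90) and the pyruvate dehydrogenase subunit gene Pdhb (0.92) higher. In papilloma 1 was higher, Pgd (0.52), and 3 lower, Gys1 (-1.27), Pygl (-0.91) and Pgm2 (-0.62). In A431 9 of 28 rose and 6 fell, by adjusted p foremost PDHB (0.67), the transporter gene SLC2A3 (2.57), PYGL (-0.53) and TKT (0.48).

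Of 38 other genes linked to hypoxia and HIF 13 rose and 11 fell in WT SCC against skin (median 0.08), by adjusted p foremost Mif (1.5) and the placental growth factor gene Pgf (2.97, adjusted p = 9.59e-05) higher and Tmem45a (-3.49) and Insig2 (-1.66) lower. In SCC labelled KO 7 were lower and 2 higher than in WT SCC (median -0.27), with Pgf (-2.74, adjusted p = 0.00399) and the MYC antagonist gene Mxi1 (-0.98) lower beside Gys1 and Gbe1, which stand in both lists. In papilloma 6 were lower and 2 higher (median -0.19), among them Pgf (-2.5) and the lipid droplet gene Hilpda (-1.43) lower and Tmem45a (2.37) higher. In A431 16 of 37 fell and 6 rose (median -0.09), by adjusted p foremost IGFBP3 (-2.16, adjusted p = 1.50e-14), which binds insulin-like growth factors, HILPDA (-0.76) and ZNF395 (-0.53) lower and HIGD1A (0.61) higher.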

How the data were processed

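RNA of 17 libraries was prepared with the Illumina Stranded mRNA kit, per the labels' protocols. The deposited values are raw read counts per gene, 1 table for mouse and 1 for A431; HISAT2, StringTie and DESeq with mm10 and hg38 are named, without versions, per the submitters' processing notes. Which annotation, strand setting and counting rule were used is not stated there. Unnamed features (0.115 to 0.496% of counts per library) were left out. edgeR 4.0.16 in R 4.3.3 was run with its filter on low counts, TMM and the two-sided quasi-likelihood test, with 4 mouse groups in 1 fit (22371 genes, 6 comparisons) and A431 in another (18090), and p-values were Benjamini-Hochberg adjusted within a comparison at 0.05. CPM use TMM-scaled library sizes. The fits were tested on simulated data. Alternatives were RLE size factors, no filter, DESeq2 1.42.0, only the groups compared, the replicate number as a block, and leaving out each library.

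Members, lists and markers were chosen with earlier results of these data known. Values per library are given for members past the threshold whose groups do not overlap, up to 6 in each direction by adjusted p, and for members that differ in direction between mouse and A431; of the 2 wider lists up to 4 genes per comparison are named. Other genes are examples chosen after their values were seen. Replicate libraries had Pearson's r of 0.896 to 0.983 (mouse) and 0.990 to 0.993 (A431) across genes and differed by more than sampling noise. Labels do not say that replicates are separate animals or cultures. By Y-linked counts WT skin 3 differed in sex from WT skin 1 and 2, and SCC 2 labelled KO from SCC 1. These were therefore not the same animal. The p-values measure the spread between libraries, which may be technical where no such difference was seen. Mouse gene positions and exon lengths are from GENCODE M21 (GRCm38), upstream sequences from RefSeq.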

Additional observations from a re-analysis of the deposited data

Results flagged for a closer look

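For 6 members all libraries of SCC labelled KO lay on one side of all WT SCC libraries while all A431 KO libraries lay on the opposite side of their controls, and the difference between the 2 systems was not tested. Over all genes 46.6% did not overlap in the mouse comparison and 55.0% in A431. The share of genes on opposite sides was not counted, so the 6 cannot be called an excess. Most of the mouse changes were not called: of the 6 only Car9 was. The log2 difference of Car9 was -1.72 in mouse and 0.54 in A431. Slc16a3, the gene of the lactate exporter MCT4, lay at 78.7, 109 and 97.7 CPM in WT SCC and 66.9 and 78.1 in SCC labelled KO (-0.39), with a difference of 0.76 in A431. Pfkm, at 13.2, 18.1 and 18.3 CPM in WT SCC and 9.52 and 10 in SCC labelled KO, had differences of -0.76 in mouse and 0.24 in A431. Gapdh, whose counts are uncertain in mouse, had -2.92 and 0.09. Pkm, at 2605, 2769 and 2541 CPM in WT SCC and 3157 and 2794 in SCC labelled KO, had 0.17 in mouse and -0.31 in A431. Bnip3l, at 244, 220.2 and 215 CPM in WT SCC and 320.4 and 305 in SCC labelled KO, had 0.47 and -0.14.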

How the results depend on the processing

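Directions of the called members did not reverse under any alternative run. Members called in SCC labelled KO against WT SCC numbered 6 and became 15 with DESeq2, 11 with no filter on low counts and 19 with only the groups compared, 5 with RLE size factors, and 0 to 4 when 1 library was left out; over all genes the calls ranged from 302 to 4160 against 1760. With the replicate number as a block 3 members were called there, and in the same fit the log2 change of Dusp1 was 0.93 (adjusted p = 0.0580), against 0.90 to 1.23 with 1 library left out. Same-numbered libraries had deviations from their group means correlated at -0.411 to 0.166. With so few libraries per group this cannot show whether the numbers pair the samples. The block moved no other count of called members by over 1.5 times. In papilloma against WT SCC the 11 calls became 6 to 9 with 1 library left out and 9 to 16 otherwise, with 478 to 2160 calls over all genes. Between SCC and papilloma labelled KO the count of 0 became 1 with DESeq2 and 2 with no filter (0 to 823 calls over all genes). Counts stayed at 31 to 33 in WT SCC against skin, 19 to 28 in SCC labelled KO against skin, 22 to 28 in papilloma against skin and 25 to 31 in A431. The median of all genes moved by over 0.1 only in comparisons with skin: by -0.19, -0.12 and -0.15 with no filter and by -0.27, -0.22 and -0.21 with DESeq2 (WT SCC, SCC and papilloma labelled KO), by 0.11 in both KO lesions with only the groups compared, and by -0.11 and -0.17 without SCC 1 and 2 labelled KO. With 1 library left out of a group of 2, the other is assumed to vary like the other groups.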
